A study of Equus caballus with 15 samples.

Results

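Sections of the myotendinous junction (MTJ) were compared with sections of the adjacent muscle in 5 horses (Equus caballus). The members are 10 of the 15 libraries of the series, 5 labelled MTJ and 5 labelled Muscle, chosen by tissue label and paired by horse number. Of the 30297 genes counted, 13564 passed the filter on low counts and were tested, and 16733 did not pass it. From the front limb of each horse a 4 mm punch of the superficial digital flexor, muscle with its tendon, was taken after euthanasia and frozen with the tendon side down for cryosectioning. About 200 micrometres of tissue went into each sample, and the MTJ sample holds muscle, tendon and the junction between them. Horses 14 and 18 were 7 years old, horses 16 and 17 were 5 and horse 20 was 6. Horse 20 was a gelding and the others were mares, and breed is not given in the labels. Horses 16, 18 and 20 are labelled trained and horse 17 sedentary, while horse 14 is labelled sedentary on its Muscle and trained on its MTJ library, so training was not compared. The labels name no treatment. Chromosomes are those of the deposited table, and the submitters' processing notes name the build EquCab3.0.

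The MTJ is where muscle fibres end and pass force to tendon. At the fibre end the membrane is folded into finger-like processes, and integrins and the dystrophin-glycoprotein complex link the actin cytoskeleton to laminins and collagens outside. Nuclei near the fibre end are known to use genes that other nuclei of the same fibre do not, and collagen XXII, encoded by COL22A1, is the best-known product. Tendon fibroblasts on the other side make type I collagen, small proteoglycans and matricellular proteins. The neuromuscular junction, another specialised region of the fibre with nuclei of its own, normally lies along the fibre and not at its end.

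The 10 libraries held 17115884 to 19295339 counts each, and no 2 libraries held identical counts. Levels are CPM, counts divided by library depth after TMM scaling (trimmed mean of M values), and lists of 5 values run in the order of horses 14, 16, 17, 18 and 20. TMM factors were 0.863 to 0.980 in Muscle and 0.993 to 1.20 in MTJ libraries. The 10 most abundant genes took 27.6% to 31.0% of the counts in Muscle and 24.8% to 27.8% in MTJ libraries. Changes are log2 MTJ over Muscle with their standard errors (SE), from the quasi-likelihood test of edgeR with a block for horse. A call means an adjusted p under 0.05 over all genes tested. Marker genes of both tissues were checked against the labels. ACTA1, skeletal muscle actin, was at 58605, 58731, 50190.3, 55658 and 48266 CPM in Muscle and 41837, 44384, 36031, 32804 and 36291 CPM in MTJ sections. COMP, a matrix protein of tendon and cartilage on chromosome 21, was at 1.20, 1.71, 2.46, 3.37 and 1.93 CPM in Muscle and 290.3, 75.3, 967, 311 and 349 CPM in MTJ sections.

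Rises in MTJ sections were larger than falls. Of the genes tested, 1479 were called higher in MTJ sections (10.9%) and 1381 lower (10.2%), 21.1% in either direction. The median change was 0.88 among genes called higher and -0.35 among those called lower. At least 2-fold changes were found for 639 genes higher (4.71%) and 31 lower (0.229%), and 9 of these 31 had a mean of at least 5 CPM in Muscle. The groups of 5 did not overlap for 783 genes (5.77%), of which 617 (4.55%) had MTJ above Muscle and 166 (1.22%) had MTJ below it. The split between directions rests on the scaling: with library totals in place of TMM factors 3539 genes (26.1%) were higher and 190 (1.4%) lower, and scaled on the authors' muscle reference genes 6619 (48.8%) were higher and 47 (0.347%) lower. The median over all genes tested moved with it, from -0.02 under TMM to 0.21 with library totals and 0.35 on the muscle reference genes. That last scaling, called muscle-gene scaling here, gives changes relative to the muscle reference genes as a set. Without horse 17 the number of lower genes was 896, and without the horse block 492 genes were higher and 38 lower.

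**Figure D1:**
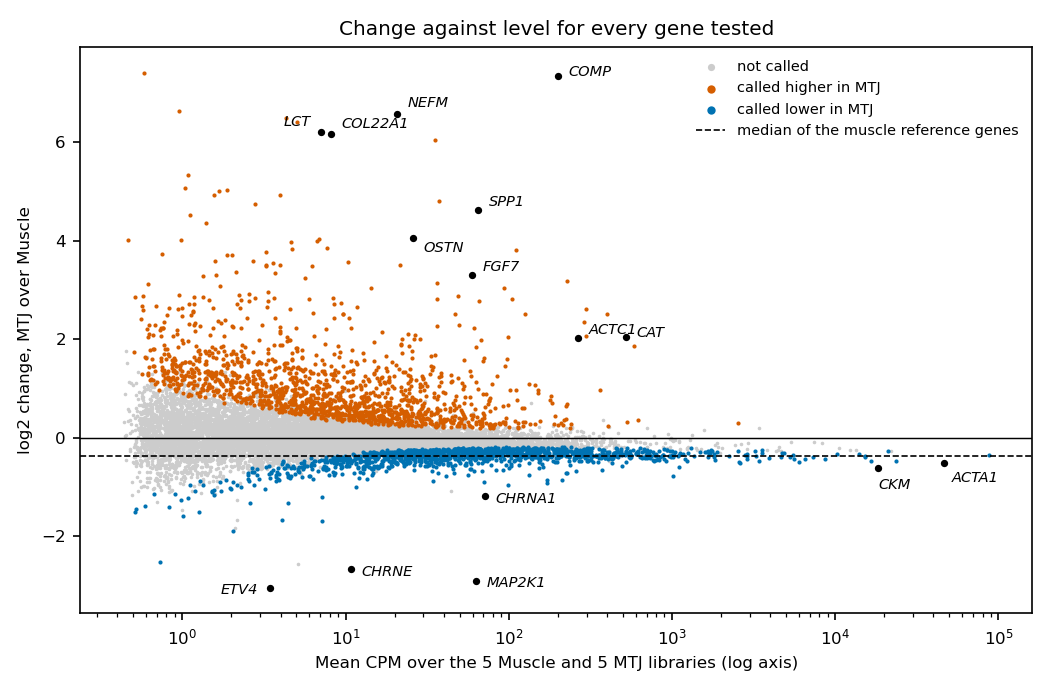
Log2 change in MTJ over Muscle sections against mean CPM (log axis) for each of the 13564 genes tested, with called genes in colour. Called rises reach further from 0 than called falls, and the falls, with a median of -0.35, lie around the dashed line at -0.37, the median of the muscle reference genes, under TMM scaling. With library totals 190 genes are lower and under muscle-gene scaling 47.

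The MTJ sections were mostly muscle by RNA, with a tendon portion that differed between horses. The authors' deposited reference genes, 219 for muscle and 322 for tendon, had been chosen on these samples, so their direction here is a description. Of 217 muscle reference genes tested, 177 were lower and 0 higher, with a median of -0.37, and of 273 tendon reference genes 250 were higher and 0 lower, with a median of 1.60. Over the muscle genes, scaled on the 10 libraries, the CPM in MTJ was at a median of 79.2%, 84.7%, 77.9%, 67.2% and 78.5% of the CPM in Muscle of the same horse, a mean of 77.5% ± 6.37 (SD, n = 5). Over the tendon genes, scaled on all 15 libraries, the CPM in MTJ was at a median of 13.7%, 12.3%, 24.5%, 16.8% and 12.2% of that in Tendon, a mean of 15.9% ± 5.16 (SD, n = 5). Horse 18 had the lowest muscle ratio and horse 17 the highest tendon ratio. With library totals these means were 90.7% and 7.90%. In bulk sections, fewer cells of a type and less RNA per cell cannot be told apart.

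Markers of fibre-end nuclei were higher in MTJ sections, led by COL22A1. Of 19 markers tested, 14 rose, 1 fell and 4 were not called, and their median change was 0.94 against -0.02 over all genes tested. COL22A1 lies on chromosome 9 and was at 0.120, 0.191, 0.292, 0.290 and 0.181 CPM in Muscle, which is 2 to 5 counts per library, and at 8.55, 19.1, 20.1, 12.8 and 20.0 CPM in MTJ sections. The groups did not overlap, and the change was 6.17 ± 0.20 (SE, adjusted p = 8.63e-10). SORBS2, an adaptor of the actin cytoskeleton, went from 5.83, 10.9, 16.7, 11.6 and 12.4 CPM to 37.8, 64.4, 94.6, 126 and 110.4 CPM, and again no MTJ value reached into the Muscle range. Its change was 2.88 ± 0.13 (SE, adjusted p = 1.38e-08). TIGD4, a gene derived from a transposase, rose by 3.48 ± 0.31, NAV3, a neuron navigator protein that binds microtubules, by 2.62 ± 0.18, and COL24A1, a fibrillar collagen, by 2.42 ± 0.30. LAMA2, the laminin chain of the muscle basement membrane, rose from 92.7 ± 11.8 to 196 ± 36.5 CPM (mean ± SD, n = 5), a change of 1.07 ± 0.07. PIEZO2, a stretch-gated ion channel, rose by 1.46 ± 0.36 from 0.557 ± 0.513 to 1.38 ± 0.561 CPM (mean ± SD, n = 5), with overlapping groups. ANKRD1, a stress-responsive protein of the sarcomere, rose by 0.55 ± 0.14 (SE, adjusted p = 0.0156) but was lower in horse 18, and its adjusted p was 0.0573 without horse 14 and 0.0687 without horse 16. Tendon sections held more of several of these markers: LAMA2 was at 120.0 ± 14.97 CPM in Muscle, 253 ± 44.8 in MTJ and 764 ± 49.3 in Tendon sections and COL24A1 at 1.42 ± 0.332 CPM in Muscle, 8.20 ± 4.20 in MTJ and 25.7 ± 9.88 in Tendon sections (mean ± SD, n = 5), scaled over all 15 libraries. MAML2, FSTL1, EBF1, APP and ITGBL1, which also rose, were likewise below Tendon in each of the 5 horses, and 2 of the 19 markers are tendon reference genes. NAV3 was above Tendon in 2 horses, or 0 with library totals, SORBS2 in 4, or 1, and TIGD4 in 4, or 2. The part of tendon tissue in these rises was not tested. The member that fell was FHOD3, a formin of the sarcomere, at -0.38. Its adjusted p was 0.98 under muscle-gene scaling, and 0.0882, 0.0501, 0.058 and 0.0638 without horse 14, 16, 17 or 18.

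**Figure D2:**
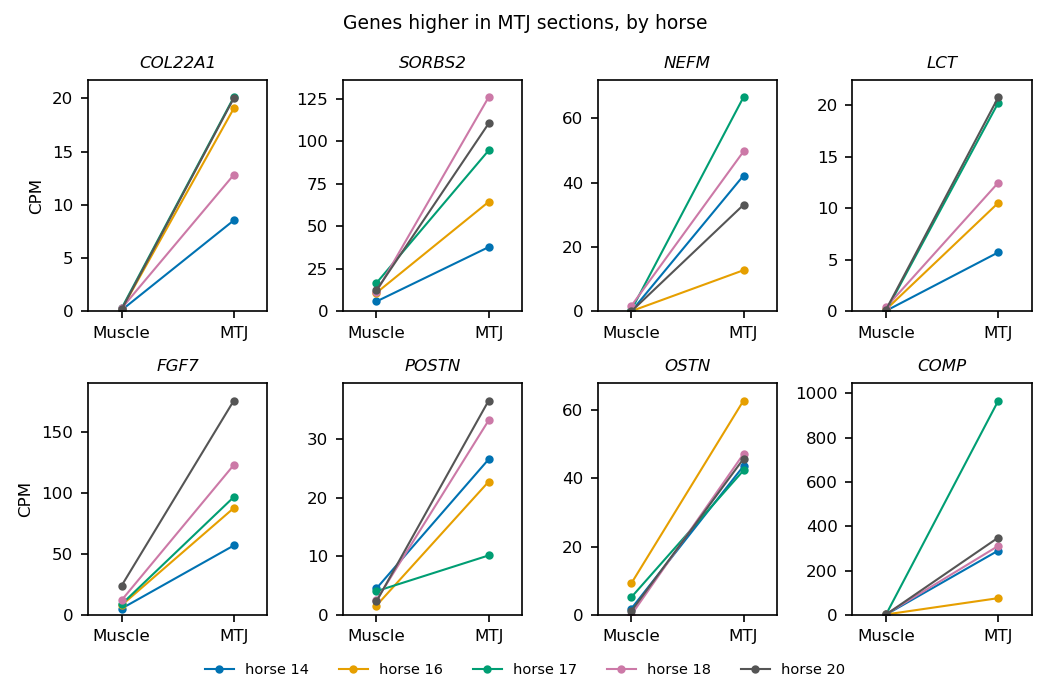
CPM of 8 genes in the Muscle and MTJ section of each horse (linear axes from 0, 1 line per horse). Every line goes up. COL22A1 and LCT are below 1 CPM in each Muscle section, while COMP spans 75.3 to 967 CPM between MTJ sections.

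Outside the fibre-end list, genes of a nerve filament, an intestinal enzyme and secreted factors were among those that rose most. NEFM, the medium neurofilament subunit of nerve axons, on chromosome 2, was at 0, 0.0635, 0.409, 1.68 and 0 CPM in Muscle and 42.2, 12.8, 66.5, 49.6 and 33.1 CPM in MTJ sections. Muscle of horses 14 and 20 held no read of it, the groups did not overlap, and the change was 6.58 ± 0.37 (SE, adjusted p = 9.33e-08), or 8.27 without horse 18, whose Muscle section was the highest. LCT, the gene of lactase, the milk-sugar enzyme of the intestine, on chromosome 18, went from 0.0601, 0.191, 0.0585, 0.407 and 0.181 CPM to 5.72, 10.5, 20.2, 12.5 and 20.8 CPM, a change of 6.20 ± 0.29 (SE, adjusted p = 1.76e-08). FGF7, a growth factor released by mesenchymal cells, on chromosome 1, was at 5.17, 7.88, 8.71, 12.02 and 23.9 CPM in Muscle and 56.8, 87.5, 96.6, 123 and 176 CPM in MTJ sections. Horse 20 was highest and horse 14 lowest in both tissues, and the change was 3.30 ± 0.10 (SE, adjusted p = 6.2e-10), the lowest p among genes of the FGF list. OSTN, the secreted muscle peptide musclin, was at 1.80, 9.21, 5.15, 0 and 1.08 CPM in Muscle and 43.6, 62.8, 42.3, 47.1 and 45.7 CPM in MTJ sections, and rose by 4.06 ± 0.42. OSTN had no read in Muscle of horse 18, and horse 16 was highest in both tissues. CHODL, a lectin of the satellite cell list, rose by 2.24 ± 0.33 with overlapping groups. UCHL1, a neuronal deubiquitinase, rose by 0.77 ± 0.13, NES, the intermediate filament nestin, by 1.18 ± 0.20, and NEFL, the light neurofilament subunit, by 2.39 ± 0.30. Of 11 neurofilament and neuronal genes tested, 5 rose and 0 fell, with a median of 0.78. Their summed level was 137 to 262 CPM in Muscle and 325 to 359 CPM in MTJ sections, with 3 and 2 listed members at 0 in every library of the group.

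Tendon cell markers and tendon matrix genes rose in most of their lists. Of 18 tenocyte markers tested, 14 rose and 0 fell, with a median of 2.09, and their summed level was 523 to 749 CPM in Muscle and 1154 to 4542 CPM in MTJ sections. Of the 18, 10 are among the authors' tendon reference genes. COMP rose by 7.34 ± 0.29 (SE, adjusted p = 6.09e-09), with the lowest MTJ value in horse 16 and the highest in horse 17. MKX, a transcription factor of tendon cells, was at 0.0601, 0, 0.234, 0.0581 and 0.121 CPM in Muscle and 1.44, 0.731, 5.07, 4.95 and 3.09 CPM in MTJ sections, and rose by 4.92 ± 0.40. TNMD, the tendon membrane protein tenomodulin, was chosen after its values were seen. It was at 0.0601, 0, 0.526, 0 and 0 CPM in Muscle and 0.778, 1.46, 1.77, 3.30 and 6.03 CPM in MTJ sections, a change of 4.36 ± 0.70 (SE, adjusted p = 0.000848). That value was 6.99 without horse 17 and 3.65 without horse 20. SCX, the tendon transcription factor scleraxis, did not pass the filter, at 0.117 to 0.362 CPM in Muscle and 0 to 0.278 CPM in MTJ sections, with 1 MTJ library at 0. ANGPTL7, a secreted angiopoietin-like protein, rose by 6.04 ± 0.48 (6.72 without horse 16) and CILP2, a cartilage matrix protein, by 6.41 ± 0.35.

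Collagens, proteoglycans and matricellular proteins rose with them. Of 12 fibrillar and fibril-associated collagens tested, 8 rose and 0 fell, with a median of 0.98. COL12A1, a fibril-associated collagen, was at 1.14 to 3.63 CPM in Muscle and 7.28 to 28.8 CPM in MTJ sections, without overlap, and rose by 2.85 ± 0.21. COL14A1, another of that kind, rose by 0.51 ± 0.10 with overlap. COL1A1, a chain of type I collagen, was chosen after its values were seen and rose by 1.11 ± 0.20 (SE, adjusted p = 0.0016), also with overlap. Of 13 small leucine-rich proteoglycans, which bind collagen fibrils, 11 rose and 0 fell, with a median of 1.38. DCN (decorin) was at 192, 218, 264, 221 and 298 CPM in Muscle and 677, 449, 1589.8, 1001 and 975 CPM in MTJ sections, a change of 1.87 ± 0.16 (SE, adjusted p = 4.28e-06). PRELP rose by 2.82 ± 0.26 and FMOD (fibromodulin) by 2.22 ± 0.30, and horse 17 had the highest MTJ value of DCN, PRELP and FMOD. Of 17 matricellular proteins, which signal from the matrix to cells, 13 rose and 0 fell, with a median of 1.35. THBS1 (thrombospondin 1) rose by 3.81 ± 0.23, THBS4 by 3.18 ± 0.25 and SPP1 (osteopontin) by 4.62 ± 0.23. POSTN (periostin), chosen after its values were seen, was at 4.51, 1.59, 4.04, 2.498 and 2.29 CPM in Muscle and 26.5, 22.7, 10.1, 33.2 and 36.6 CPM in MTJ sections. Horse 17, highest for COMP, had the lowest POSTN value of the MTJ sections, and the change was 3.04 ± 0.29 (SE, adjusted p = 1.13e-05).

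Enzymes that build and cut the matrix were higher too. Of 24 collagen folding and cross-linking enzymes, 13 rose (54.2%) and 2 fell (8.33%, near the 10.2% of all genes), with a median of 0.56. LOX, which cross-links collagen, was at 0.841, 2.48, 3.92, 2.09 and 1.27 CPM in Muscle and 34.5, 10.3, 212, 50.3 and 56.4 CPM in MTJ sections, a change of 4.81 ± 0.36 (SE, adjusted p = 1.22e-06). Of 18 elastic fibre genes, 16 rose, with a median of 1.09, among them LTBP2, a binding protein of latent TGF-beta, by 3.56 ± 0.28 and FBLN1 (fibulin 1) by 3.14 ± 0.16. The member that fell was FBN2 (fibrillin 2), chosen after its values were seen, by -0.59 ± 0.18 (SE, adjusted p = 0.0338). Its adjusted p was 0.0646, 0.126 and 0.108 without horse 17, 18 or 20, and 0.302 under muscle-gene scaling. Of 21 matrix proteases and inhibitors, 9 rose and 0 fell, with a median of 0.64, including MMP2, a gelatinase, by 1.88 ± 0.10 and TIMP2, its inhibitor, by 2.04 ± 0.20.

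Genes of cell attachment changed less evenly. Of 17 integrins tested, 8 rose and 0 fell, with a median of 0.63. ITGA10, a collagen receptor chain, was at 3.24, 3.75, 3.10, 2.79 and 3.50 CPM in Muscle and 28.7, 19.1, 57.8, 62.1 and 32.1 CPM in MTJ sections, a change of 3.50 ± 0.23 (SE, adjusted p = 4.07e-07). ITGB1, the common beta chain, rose by 0.26 ± 0.06, and its groups did not overlap. ITGA7, the laminin receptor chain of muscle that is known to be enriched at the junction as a protein, was at 203, 139, 113, 149 and 86.7 CPM in Muscle and 180.0, 139, 136, 133 and 104 CPM in MTJ sections and was not called. Its change was 0.04 ± 0.08 (SE, adjusted p = 0.799), and 0.41 under muscle-gene scaling (adjusted p = 0.00226). Of 20 basement membrane genes 6 rose and 0 fell, with a median of 0.12, which was -0.01 without horse 18. Of 24 focal adhesion proteins 7 rose (29.2%) and 2 fell (8.33%, near the 10.2% of all genes), with a median of 0.08. Of 21 dystrophin-glycoprotein genes 1 rose and 1 fell under TMM scaling, against 10.9% and 10.2% of all genes. Their median was -0.05 and lay above 0 with library totals (0.17), under muscle-gene scaling (0.31), with a minimum of 5 CPM (0.05) and without horse 16 (0.000521) or 18 (0.01). With library totals 9 of the 21 were called higher, and 14 under muscle-gene scaling, against 26.1% and 48.8% of all genes.

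Ligands, receptors and inhibitors of several growth factor pathways were called, most of them higher. In the FGF list, 5 of 16 genes rose (31.25%) and 2 fell (12.5%), with a median of 0.27. Of all genes 10.9% rose and 10.2% fell, so the share that fell is near that of all genes. FGFR1, a receptor, rose by 1.38 ± 0.10 and FGF9, a ligand, by 1.67 ± 0.26. FGF10, a ligand chosen after its values were seen, fell by 0.57 ± 0.10 (SE, adjusted p = 0.00171) in 5 of 5 horses, but its adjusted p was 0.171 under muscle-gene scaling. FGF6, a ligand of skeletal muscle, was at 2.40, 6.73, 8.66, 1.34 and 0.542 CPM in Muscle and 0.889, 1.35, 1.62, 1.96 and 0.515 CPM in MTJ sections. Its fall of -1.32 ± 0.40 (SE, adjusted p = 0.0331) was not seen in horse 18, and its adjusted p was 0.0695, 0.165 and 0.193 without horse 14, 16 or 17 and 0.0984 under muscle-gene scaling. In the TGF-beta and BMP list, 14 of 40 rose and 1 fell, with a median of 0.38. CHRDL1, a secreted BMP inhibitor, rose by 2.43 ± 0.24. The member that fell was MSTN (myostatin), the inhibitor of muscle growth, chosen after its values were seen, by -0.73 ± 0.21 (SE, adjusted p = 0.0232), with an adjusted p of 0.0692 without horse 14, 0.0754 without horse 18 and 0.144 under muscle-gene scaling.

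In the Hedgehog list 4 of 9 rose and 0 fell, with a median of 0.68, which was -0.07 with a minimum of 5 CPM. HHIP, which binds and holds back Hedgehog ligands, was at 0.0601, 0.127, 0.409, 0.174 and 0.482 CPM in Muscle and 2.00, 6.24, 1.32, 6.95 and 2.37 CPM in MTJ sections, a change of 3.70 ± 0.49 (SE, adjusted p = 0.000188). The co-receptors CDON and BOC rose by 2.65 ± 0.24 and 1.90 ± 0.22. In the Wnt list 8 of 20 rose and 0 fell, with a median of 0.38. DKK1, a secreted Wnt inhibitor, was at 0.0601, 0.191, 0.0585, 0.116 and 0 CPM in Muscle and 4.55, 3.21, 18.96, 6.68 and 9.12 CPM in MTJ sections, a change of 6.49 ± 0.41 (SE, adjusted p = 2.69e-07), with 7.19 without horse 16 and 5.88 without horse 17. DKK3, of the same family, rose by 3.51 ± 0.31. Of 12 genes of the IGF system 6 rose and 0 fell, including IGFBP6, an IGF-binding protein, by 2.74 ± 0.22. Of 22 YAP and TAZ target genes 9 rose (40.9%) and 2 fell (9.09%), the latter near the 10.2% of all genes. CCN2, a matricellular growth factor of that list, rose by 2.52 ± 0.24.

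**Figure D3:**
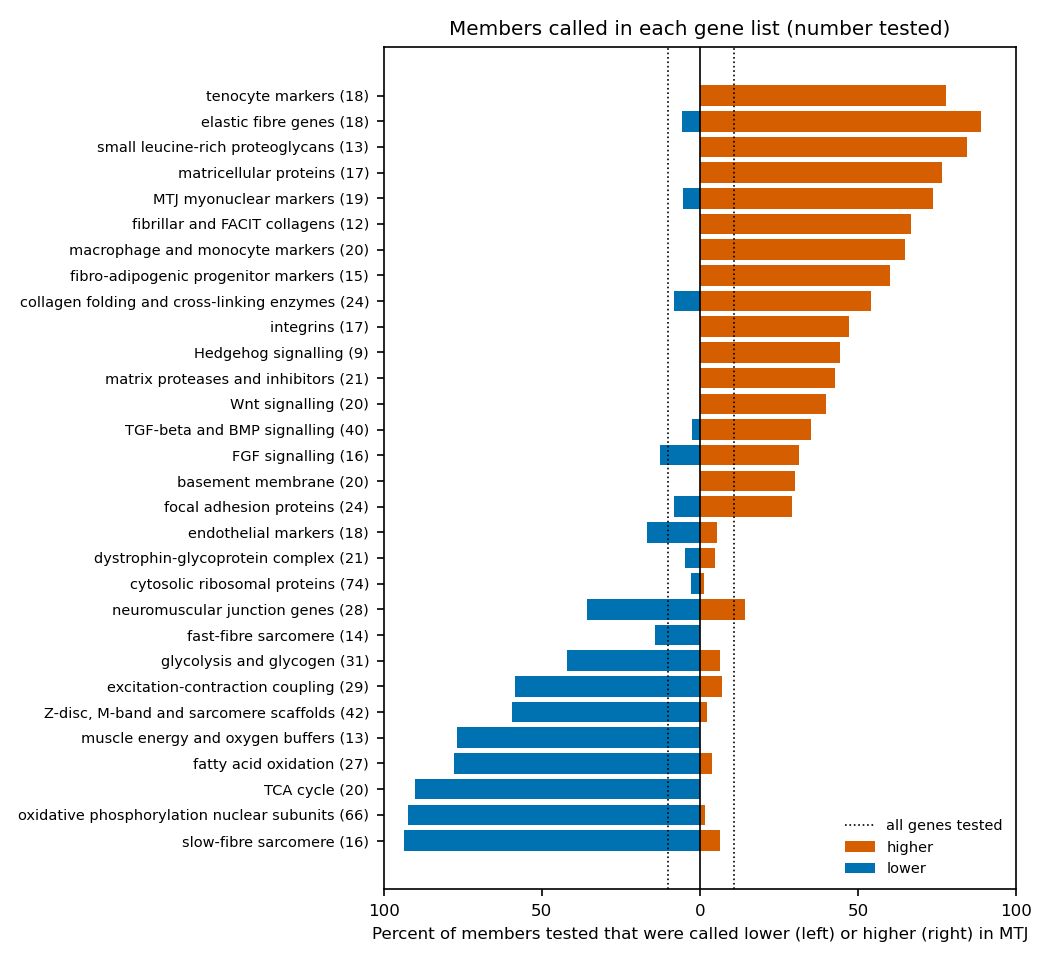
Percent of the members tested in 30 gene lists that were called higher (right) or lower (left) in MTJ sections under TMM scaling, with the number tested in brackets. Dotted lines mark the percent of all genes tested, 10.9% higher and 10.2% lower. Tendon and matrix lists reach furthest right and slow-fibre and mitochondrial lists furthest left, but under muscle-gene scaling 0 genes of oxidative phosphorylation and 0 of the slow-fibre list were lower, 12 of whose 16 members help set that scaling.

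Markers of other cells moved in different directions or were called at shares near those of all genes tested. Those shares were 10.9% higher and 10.2% lower under TMM scaling. Of 20 macrophage markers tested 13 rose and 0 fell, with a median of 1.00, and their summed level was 75.9 to 175 CPM in Muscle and 181 to 308 CPM in MTJ sections, without overlap. Of the macrophage markers listed 1 was at 0 in every library of each group. CD163, a scavenger receptor of macrophages, was at 13.7, 11.9, 32.3, 29.4 and 37.5 CPM in Muscle and 48.3, 29.3, 52.7, 67.1 and 62.8 CPM in MTJ sections, a change of 1.13 ± 0.13 (SE, adjusted p = 6.1e-05), and MRC1, the mannose receptor, rose by 1.44 ± 0.24. Of 15 markers of fibro-adipogenic progenitors, the connective tissue cells of muscle, 9 rose and 0 fell, with a median of 0.61 and sums of 537 to 843 CPM in Muscle and 943 to 1355 CPM in MTJ sections. Of 10 lymphocyte markers 1 rose (10%), a share near that of all genes. It was CD8B, by 3.28 ± 0.33. The summed level of the list was 14.3 to 22.6 CPM in Muscle and 16.3 to 23.7 CPM in MTJ sections. Of 18 endothelial markers 1 rose (5.56%) and 3 fell (16.7%). Their median of -0.08 was 0.15 with library totals and 0.30 under muscle-gene scaling. Their sums were 482 to 694 CPM in Muscle and 452 to 723 CPM in MTJ sections. FLT1, a receptor of vascular growth factor, fell by 0.64 ± 0.07 (SE, adjusted p = 3.89e-05) in 5 of 5 horses, and stood at -0.27 under muscle-gene scaling (adjusted p = 0.0291). Of 11 adipocyte markers 2 rose and 5 fell, with a median of -0.37, while under muscle-gene scaling 4 were higher and 0 lower. Their sums were 894 to 1363 CPM in Muscle and 713 to 1111 CPM in MTJ sections, with 2 listed members at 0 in every library of each group. CIDEA, a lipid droplet protein, rose by 3.51 ± 0.54 (4.72 without horse 18), and PLIN4, another, fell by 0.67 ± 0.13 (SE, adjusted p = 0.00241), with an adjusted p of 0.0786 under muscle-gene scaling. The part of these cells in the rises above was not tested.

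Genes of the neuromuscular junction split between 10 that fell, 4 that rose and 14 not called, of 28 tested. Under TMM scaling 35.7% of them were thus lower and 14.3% higher, against 10.2% and 10.9% of all genes. Their median was -0.14 under TMM but 0.09 with library totals and 0.23 under muscle-gene scaling. In that last scaling 4 of the 28 were lower and 9 higher, against 0.347% and 48.8% of all genes. Of the 31 genes at least 2-fold lower in MTJ sections, 5 are on this list. CHRNE, the epsilon subunit that marks the adult acetylcholine receptor, on chromosome 11, was at 11.5, 30.0, 40.4, 3.83 and 9.40 CPM in Muscle and 2.72, 3.26, 3.09, 2.45 and 0.927 CPM in MTJ sections. Each Muscle value was above each MTJ value, though horse 18 differed least, and the change was -2.67 ± 0.32 (SE, adjusted p = 8.25e-05). CHRNA1, the alpha subunit, went from 71.9, 106, 133, 112 and 71.9 CPM to 25.8, 43.9, 38.3, 70.0 and 43.4 CPM, again without overlap, a change of -1.19 ± 0.14 (SE, adjusted p = 5.3e-05). ACHE, the esterase that ends the signal, was at 9.73, 19.4, 19.2, 2.32 and 3.80 CPM in Muscle and 0.889, 7.76, 5.98, 0.535 and 2.57 CPM in MTJ sections, lower in each horse with overlapping groups, and changed by -1.69 ± 0.27 (SE, adjusted p = 0.000911). Under muscle-gene scaling CHRNE, CHRNA1 and ACHE were still called, at -2.29, -0.81 and -1.36.

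MAP2K1, the kinase MEK1 that activates ERK, on chromosome 1, was at 87.9, 199.6, 225, 17.1 and 44.4 CPM in Muscle and 9.39, 12.4, 14.0, 7.53 and 13.3 CPM in MTJ sections. Muscle values were high in horses 14, 16 and 17 and low in horse 18, each above every MTJ value, and the change was -2.91 ± 0.35 (SE, adjusted p = 7.25e-05). ETV4, an ETS factor downstream of ERK that acts at the mouse endplate, went from 5.35, 11.8, 11.9, 0.871 and 1.69 CPM to 0.444, 0.956, 0.507, 0.802 and 0.309 CPM, a change of -3.04 ± 0.46 (SE, adjusted p = 0.000531), or -3.72 without horse 18. The ETV4 groups overlapped, horse 18 differed least, and every MTJ value was below 1 CPM. ETV5, its close relative, was not called at -0.68 ± 0.31 (SE, adjusted p = 0.139), and was called without horse 18, at -1.01 (adjusted p = 0.0414). In the ERK list as a whole 2 of 20 rose (10%) and 4 fell (20%), against 10.9% and 10.2% of all genes. MAP2K1 and ETV4 are among the 4. The list median of 0.03 was -0.03 with a minimum of 5 CPM and -0.01 without horse 20. EPHA4, an ephrin receptor of that list, rose by 2.90 ± 0.41.

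Other subunits of the receptor were higher, not called or lower by less. CHRNG, the gamma subunit of the fetal receptor, was at 1.502, 3.11, 0.468, 5.63 and 0.181 CPM in Muscle and 3.50, 26.9, 37.4, 6.15 and 0.669 CPM in MTJ sections. Horses 16 and 17 were high in MTJ and the groups overlapped, with a change of 2.43 ± 0.61 (SE, adjusted p = 0.0123), 1.52 without horse 17, 3.43 without horse 18 and an adjusted p of 0.0693 without horse 16. CHRND, the delta subunit, was not called at -0.28 ± 0.17 (SE, adjusted p = 0.279), with 0.09 under muscle-gene scaling, and it was called at -0.54 without horse 16 (adjusted p = 0.0104). CHRNB1, the beta subunit, fell by 0.24 ± 0.08 (SE, adjusted p = 0.0421) but stood at 0.13 under muscle-gene scaling, and its adjusted p was 0.159, 0.118 and 0.1 without horse 17, 18 or 20. RAPSN, which clusters receptors, was not called at -0.17 ± 0.07 (SE, adjusted p = 0.114), with 0.06 with library totals and 0.21 under muscle-gene scaling. MUSK, the receptor kinase that organises the endplate, rose from 39.6, 36.8, 41.5, 50.8 and 18.6 CPM to 78.5, 47.1, 49.1, 56.8 and 40.7 CPM, a change of 0.57 ± 0.13 (SE, adjusted p = 0.00776). NCAM1, the neural cell adhesion molecule, was at 12.01, 22.1, 20.2, 27.7 and 5.91 CPM in Muscle and 120.4, 105, 102, 97.5 and 147 CPM in MTJ sections, without overlap, and rose by 2.78 ± 0.29 (SE, adjusted p = 1.86e-05). COLQ, the collagen tail of acetylcholinesterase, fell by 0.64 ± 0.15 (SE, adjusted p = 0.00832), with an adjusted p of 0.17 under muscle-gene scaling.

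Among sodium channel genes, SCN4A and SCN4B fell, and so did SCN3B, which was chosen after its values were seen. SCN4A, the main channel of adult muscle and on the junction list, fell by 0.43 ± 0.07 (SE, adjusted p = 0.00135), but stood at -0.06 under muscle-gene scaling (adjusted p = 0.468). SCN4B, an accessory subunit, was at 188, 359.8, 506, 154 and 204 CPM in Muscle and 91.1, 261, 295, 89.2 and 142 CPM in MTJ sections and fell by 0.72 ± 0.08 (SE, adjusted p = 5.64e-05), still called under muscle-gene scaling at -0.35. SCN3B, another accessory subunit, fell by 1.67 ± 0.50 (SE, adjusted p = 0.0313), but not in horse 18, and its adjusted p was 0.106, 0.0691 and 0.127 without horse 14, 16 or 17 and 0.0684 under muscle-gene scaling. Without horse 17 its change was -1.05.

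Genes of Schwann cells, which wrap motor axons, did not share 1 direction, and S100B differed between horses. S100B, a calcium-binding protein of Schwann cells, chosen after its values were seen, was at 3.60, 6.54, 3.80, 0.174 and 0.784 CPM in Muscle and 0.222, 1.35, 0.101, 4.81 and 0.257 CPM in MTJ sections. Its Muscle values were high in horses 14, 16 and 17, while in MTJ sections horse 18 was highest. It was not called at -1.66 ± 0.91 (SE, adjusted p = 0.22), and without horse 18 it was at -3.05 (adjusted p = 0.000805). CHRNE, ACHE, ETV4 and MAP2K1 were also highest in Muscle of horses 14, 16 and 17. The part of nerve in these falls was not tested. Of 10 Schwann cell and myelin genes tested 3 rose (30%) and 0 fell, against 10.9% and 10.2% of all genes. Their changes ran from -2.56 to 2.78, the highest being NCAM1. The list median was 0.21, or -0.29 without horse 18, and the median log2 ratio was 2.25 in horse 18 alone. The summed level of that list was 125 to 201 CPM in Muscle and 243 to 314 CPM in MTJ sections, of which NCAM1, also on the junction list, is a part. SOX10, MAG and PRX, which help define these cells, did not pass the filter, at 0.241 to 1.70, 0 to 1.08 and 0.116 to 1.21 CPM in Muscle and 0.111 to 0.936, 0 to 0.356 and 0 to 0.394 CPM in MTJ sections. In every Muscle library 1 listed member was at 0, and in every MTJ library 2.

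**Figure D4:**
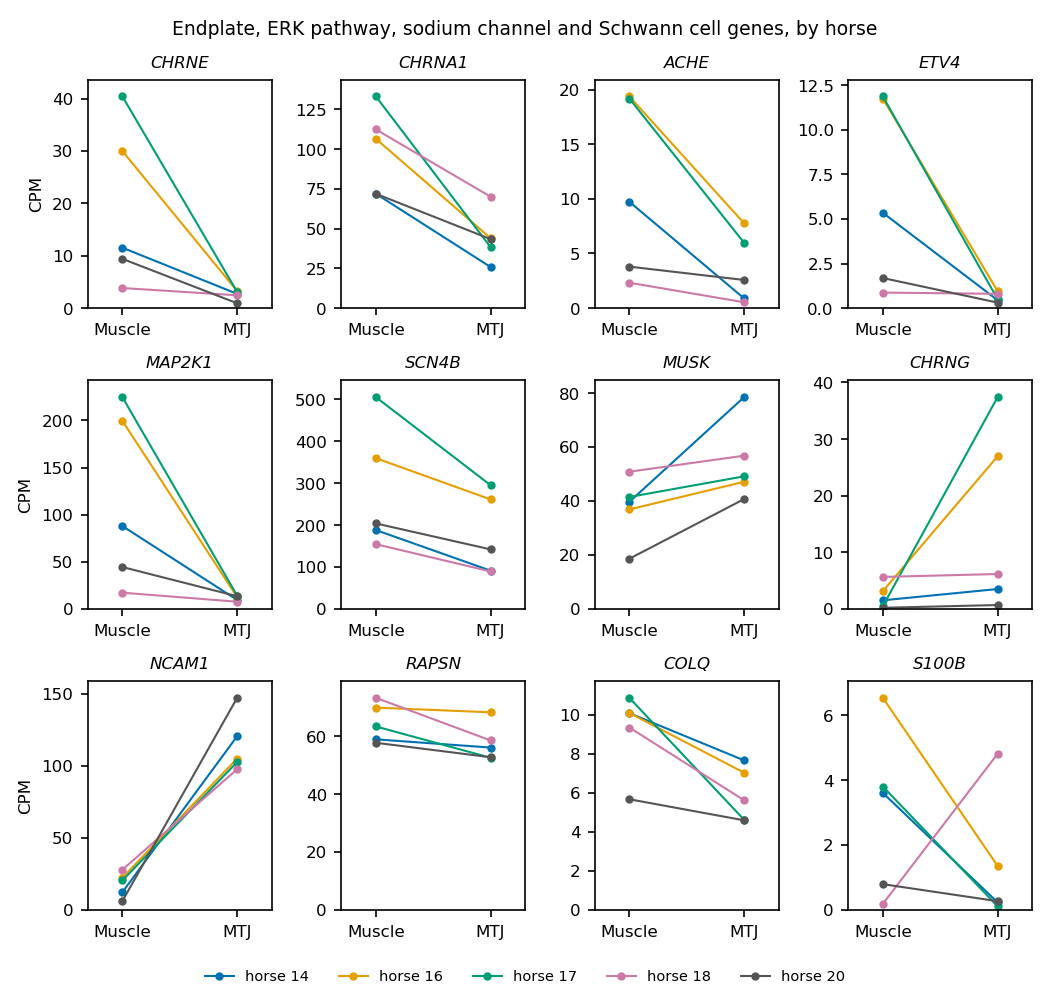
CPM of 12 genes in the Muscle and MTJ section of each horse (linear axes from 0, 1 line per horse). CHRNE, ETV4 and MAP2K1 are high in Muscle of horses 14, 16 and 17 and low in the MTJ sections, and RAPSN, which was not called, is slightly lower in MTJ sections here and higher with library totals and under muscle-gene scaling. S100B rises in horse 18, whose MTJ section is the highest of its group.

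Many genes of the contractile apparatus fell under TMM scaling. Muscle-gene scaling is set in part on these same genes, which draws their values towards 0: the muscle reference genes include 12 of 16 slow-fibre, 11 of 14 fast-fibre, 17 of 42 Z-disc and 9 of 29 coupling genes. Of 16 slow-fibre genes 15 fell and 1 rose, with a median of -0.41 that was -0.04 under muscle-gene scaling. MYH7, the slow myosin heavy chain, was at 33146, 22639, 23835, 36809.7 and 21832 CPM in Muscle and 22736, 19025, 19666, 21836 and 15755 CPM in MTJ sections and fell by 0.46 ± 0.10 (SE, adjusted p = 0.00479), with an adjusted p of 0.174 under muscle-gene scaling. CASQ2, the calcium store protein of slow and cardiac muscle, went the other way, from 126, 133, 69.6, 126 and 66.1 CPM to 215, 248, 152, 206 and 167 CPM without overlap, a change of 0.97 ± 0.09 (SE, adjusted p = 7.44e-06). Of 14 fast-fibre genes 2 fell (14.3%, against 10.2% of all genes) and 0 rose, with a median of -0.25 that was 0.12 under muscle-gene scaling. MYH2, a fast myosin heavy chain, was higher in MTJ in horse 14 and lower in the other 4. It was not called at -0.20 ± 0.13 (SE, adjusted p = 0.301), and without horse 14 it was called at -0.38 (adjusted p = 0.0053). Its direction turned with library totals (0.03) and under muscle-gene scaling (0.17).

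Of 42 Z-disc, M-band and scaffold genes 25 fell and 1 rose, with a median of -0.28 that was 0.09 under muscle-gene scaling. TTN (titin) fell by 0.35 ± 0.10 (SE, adjusted p = 0.0284) but stood at 0.02 under muscle-gene scaling, and its adjusted p was 0.0802, 0.0685 and 0.0872 without horse 16, 17 or 20. MYOM2, an M-band protein of fast fibres, was at 1431, 1389, 846, 849 and 1816 CPM in Muscle and 958, 908, 504, 415 and 1008 CPM in MTJ sections. The groups overlapped, but each horse was lower in MTJ, and the fall of -0.76 ± 0.08 (SE, adjusted p = 1.81e-05) was called under muscle-gene scaling too, at -0.39. ANKRD2, a stretch-responsive protein, fell by 0.86 ± 0.13 (SE, adjusted p = 0.000468), and stood at -0.48 under muscle-gene scaling. LMOD2, which lengthens thin filaments, fell by 0.56 ± 0.08 (SE, adjusted p = 0.000488), with an adjusted p of 0.0508 under muscle-gene scaling. Of 29 genes of excitation-contraction coupling 17 fell and 2 rose, with a median of -0.28 that was 0.09 under muscle-gene scaling.

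Of 14 embryonic and cardiac contractile genes 4 rose and 1 fell, with a median of 0.37. ACTC1, cardiac actin, was at 289, 131, 21.2, 107 and 18.1 CPM in Muscle and 1089, 514, 143, 252 and 96.7 CPM in MTJ sections. Horse 14 was highest in both tissues and each horse rose, a change of 2.03 ± 0.16 (SE, adjusted p = 1.93e-06). Reads of ACTC1 could be shared with ACTA1, a closely related actin gene with a change of -0.51. Such sharing was not tested. MYH3, the embryonic myosin heavy chain, chosen after its values were seen, was at 25.8, 36.8, 36.6, 28.8 and 30.9 CPM in Muscle and 43.9, 134, 35.1, 32.7 and 26.9 CPM in MTJ sections. Its MTJ value stood out in horse 16, and it was not called at 0.52 ± 0.22 (SE, adjusted p = 0.122), while under muscle-gene scaling it was at 0.89 (adjusted p = 0.00673).

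Nuclear genes of energy metabolism were lower together under TMM scaling. Of 66 subunits of oxidative phosphorylation 61 fell and 1 rose, with a median of -0.35 that was 0.02 under muscle-gene scaling, where 0 were lower and 3 higher. The median was -0.34, -0.18, -0.31, -0.63 and -0.30 in the 5 horses, furthest down in horse 18. That horse also had the lowest muscle ratio, but both values come from the same libraries and TMM factors, so they are not independent. With library totals its muscle ratio was 87.6%, beside 88.5% in horse 17. CYC1, a subunit of complex III, fell by 0.64 ± 0.11 (SE, adjusted p = 0.0011), with an adjusted p of 0.0588 under muscle-gene scaling. Of 20 genes of the TCA cycle 18 fell, with a median of -0.32 that was 0.05 under muscle-gene scaling. IDH2, the mitochondrial isocitrate dehydrogenase, was at 177, 323, 263, 74.3 and 234 CPM in Muscle and 59.4, 215, 136, 40.6 and 185 CPM in MTJ sections and fell by 0.86 ± 0.13 (SE, adjusted p = 0.000586), still called at -0.49 under muscle-gene scaling. Genes encoded in mitochondrial DNA were not analysed here.

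Of 27 genes of fatty acid oxidation 21 fell and 1 rose, with a median of -0.31 that was 0.06 under muscle-gene scaling. Of 31 genes of glycolysis and glycogen 13 fell and 2 rose, and their median of -0.21 was 0.02 with library totals and 0.16 under muscle-gene scaling. Of 13 genes that buffer energy and oxygen 10 fell, with a median of -0.42 and -0.05 under muscle-gene scaling, and 8 of the 13 are muscle reference genes. CKM, muscle creatine kinase, was at 22949.5, 23917, 26945, 18679 and 18209 CPM in Muscle and 14237, 17782, 18372, 10346 and 12271 CPM in MTJ sections, lower in each horse, a change of -0.62 ± 0.09 (SE, adjusted p = 0.000388) that was -0.24 under muscle-gene scaling and still called. CKMT2, the mitochondrial form, fell by 0.60 ± 0.08 (SE, adjusted p = 0.000296) and was also still called there, at -0.22. SLC2A4, the insulin-responsive glucose transporter, fell by 0.54 ± 0.07, with an adjusted p of 0.0737 under muscle-gene scaling.

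In pairs of a muscle form and a general form of a protein, the called changes went opposite ways under TMM scaling. Over 14 pairs taken from textbook knowledge after values were seen, 10 muscle forms fell and 0 rose, with a median of -0.34, while 8 general forms rose and 0 fell, with a median of 0.37. PYGM, muscle glycogen phosphorylase, fell by 0.34 ± 0.09 (SE, adjusted p = 0.0152) but stood at 0.03 under muscle-gene scaling (adjusted p = 0.0595 without horse 17 under TMM), and PYGB, the brain form, rose by 0.63 ± 0.10 (SE, adjusted p = 0.000771). CPT1B, the muscle carnitine palmitoyltransferase, chosen after its values were seen, fell by 0.36 ± 0.06 (SE, adjusted p = 0.00179) but stood at 0.01 under muscle-gene scaling, and CPT1A, the liver form, rose by 0.86 ± 0.17 (SE, adjusted p = 0.00358). RPL3L, a ribosomal protein of muscle, fell by 0.32 ± 0.07 (SE, adjusted p = 0.00624) but stood at 0.05 under muscle-gene scaling, and RPL3, its general form, rose from 140.1 ± 24.1 to 231 ± 49.0 CPM (mean ± SD, n = 5), a change of 0.71 ± 0.12 (SE, adjusted p = 0.000925). FLNC, the filamin of muscle, fell by 0.44 ± 0.09 (SE, adjusted p = 0.00296), with -0.07 under muscle-gene scaling.

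Few cytosolic ribosomal protein genes were called under TMM scaling, against 10.9% higher and 10.2% lower among all genes. Of 74 cytosolic ribosomal proteins 1 rose and 2 fell, and their median of -0.09 was 0.14 with library totals and 0.28 under muscle-gene scaling. With library totals 16 of the 74 were called higher, and 48 under muscle-gene scaling. The shares of all genes higher were 26.1% and 48.8% there. Of 31 proteasome subunits 0 rose and 4 fell under TMM scaling, the latter a share near that of all genes. Their median of -0.13 was 0.10 with library totals and 0.25 under muscle-gene scaling. Called higher were 8 of these subunits with library totals and 25 under muscle-gene scaling. Of 22 antioxidant enzymes 5 rose and 5 fell, and their median of -0.03 was 0.20 with library totals and 0.34 under muscle-gene scaling. CAT (catalase) was at 173, 209, 156, 195 and 214 CPM in Muscle and 667, 289, 1159, 1090.3 and 1048 CPM in MTJ sections, without overlap, a change of 2.04 ± 0.25 (SE, adjusted p = 9.02e-05). GPX3, a secreted glutathione peroxidase, rose by 2.51 ± 0.17 and SOD3, a secreted superoxide dismutase, by 2.81 ± 0.47 (2.15 without horse 17). PRDX2, a peroxiredoxin chosen after its values were seen, fell by 0.48 ± 0.08 (SE, adjusted p = 0.000873), with an adjusted p of 0.141 under muscle-gene scaling. Of 21 atrophy ligases and FOXO factors 8 fell and 0 rose. FBXO32 (atrogin-1) fell by 0.37 ± 0.08 (SE, adjusted p = 0.00408) but stood at 0.00424 under muscle-gene scaling, and MUL1, a mitochondrial ligase, fell by 0.71 ± 0.10 (SE, adjusted p = 0.000307), still called at -0.34.

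Few genes were lower relative to the authors' muscle reference genes, which were chosen on these samples. Under muscle-gene scaling 47 genes (0.347%) were lower, while 6619 (48.8%) were higher. Of the 47, 43 had a symbol and 36 had at least 5 CPM in Muscle. Beside the junction and channel genes they include SMYD2, a lysine methyltransferase, at 84.9, 93.3, 73.6, 100.2 and 105 CPM in Muscle and 35.0, 50.5, 45.4, 52.5 and 64.8 CPM in MTJ sections, without overlap and with a change of -0.89 ± 0.09 (SE, adjusted p = 1.12e-05) under TMM. METTL21C, a muscle methyltransferase, changed by -0.91 ± 0.12, TFRC, the transferrin receptor, by -0.96 ± 0.14, and KCNJ12, an inward-rectifier potassium channel, by -0.87 ± 0.10, each called under both scalings. GPC4, a glypican of the cell surface, was at 15.3, 17.6, 23.8, 11.4 and 10.3 CPM in Muscle and 8.11, 9.68, 6.44, 6.51 and 7.26 CPM in MTJ sections, a change of -1.002 ± 0.16 (SE, adjusted p = 0.000911). CHRNE, MAP2K1, SMYD2, GPC4 and FAM220A, the last chosen after its values were seen, were the 5 genes called lower in each of the 18 fits run, and 275 genes were called higher in each of them. The 18 include a fit on only the 8606 genes with a mean of at least 5 CPM, so genes below that could not qualify. They also include the unfiltered fit, whose calls are not gene-level tests.

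**Figure D5:**
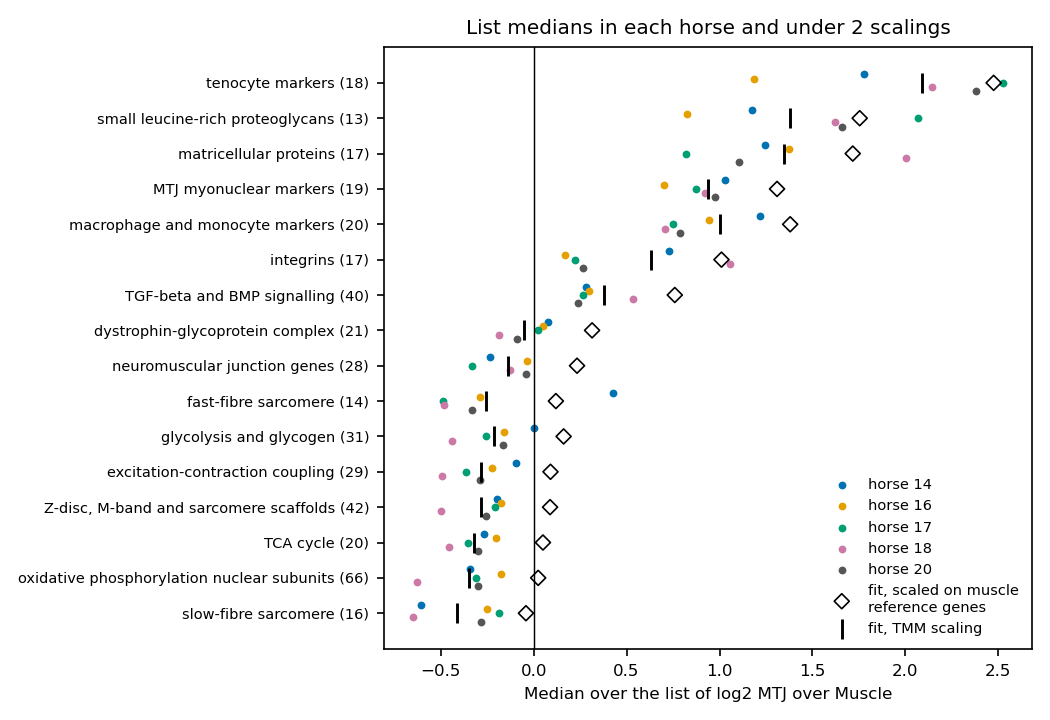
Median log2 change over 16 gene lists, as 1 point per horse (log2 ratio of CPM with 0.5 added), a bar for the fit under TMM scaling and a diamond for the fit under muscle-gene scaling. The tenocyte, proteoglycan and matricellular medians lie right of 0 in each horse and under both scalings, while those of the dystrophin-glycoprotein, oxidative phosphorylation, TCA cycle, coupling, Z-disc, glycolysis, fast-fibre and neuromuscular lists go from below 0 under TMM to above 0 under muscle-gene scaling.

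Tendon sections of the same horses give the levels on the other side, in CPM scaled over all 15 libraries and with no test. Of the 1479 genes called higher in MTJ sections, 1081 were below Tendon in 5 of 5 horses and 84 above it in 5 of 5, or 18 with library totals; these counts share the MTJ libraries and are a description. The genes below were chosen after their values were seen, most of them for an MTJ mean above Tendon. COL22A1 was at 0.278 ± 0.0963 CPM in Muscle, 20.9 ± 6.70 in MTJ and 8.57 ± 9.9996 in Tendon sections (mean ± SD, n = 5), with MTJ above Tendon in 4 horses, or 3 with library totals. FGF7 was at 14.9 ± 9.43 CPM in Muscle, 140.0 ± 58.6 in MTJ and 86.4 ± 40.8 in Tendon sections, above Tendon in 3 horses, or 2 with library totals. NEFM was at 0.550 ± 0.912 CPM in Muscle, 52.8 ± 25.2 in MTJ and 18.98 ± 11.5 in Tendon sections, above Tendon in 4 horses, or 2 with library totals. POSTN was at 3.86 ± 1.60 CPM in Muscle, 33.6 ± 13.6 in MTJ and 7.57 ± 6.50 in Tendon sections, and it, ACTC1, MUSK, CD52 and CTXN3 were above Tendon in 5 of 5 horses under both scalings. ACTC1 was at 146 ± 142 CPM in Muscle, 545 ± 533 in MTJ and 88.5 ± 120.4 in Tendon sections and MUSK at 48.5 ± 14.9 CPM in Muscle, 70.6 ± 19.2 in MTJ and 11.01 ± 11.6 in Tendon sections. CD52, a glycoprotein of leukocytes, was at 6.27 ± 1.37 CPM in Muscle, 15.7 ± 3.34 in MTJ and 4.27 ± 1.89 in Tendon sections and CTXN3, a cortexin, at 90.1 ± 16.4 CPM in Muscle, 149 ± 61.2 in MTJ and 14.7 ± 12.3 in Tendon sections. COMP was at 2.76 ± 1.03 CPM in Muscle, 514 ± 425 in MTJ and 8553 ± 2004 in Tendon sections, below Tendon in each horse, as were most genes called higher.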

How the data were processed

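RNA of Muscle and MTJ cryosections from 5 horses was purified with TriReagent and sequenced on DNBseq after oligo-dT selection or depletion of ribosomal RNA and random-primed reverse transcription, per the labels' protocols. The labels do not say which of these selections each library had. The deposited table holds raw counts per gene, whole numbers without normalization, and the submitters' processing notes name EquCab3.0 and DESeq2 1.26.0. Aligner, counter and strand setting: not given in the sources used here, so antisense partners and near-identical copies cannot be told apart from their genes. Reference genes of muscle and of tendon came from 2 further tables deposited by the authors, which hold their own log2 fold change and adjusted p-value per gene, and only the genes' membership was used here. Of 30297 genes, 86 symbols stood on more than 1 row.

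Each sample took its group and horse number from its title, and no per-sample column was left unmapped. From the counts, genes were filtered with filterByExpr, libraries scaled with TMM on their full totals, and MTJ was tested against Muscle with edgeR 4.0.16 (R 4.3.3) quasi-likelihood tests, horse as a block and Benjamini-Hochberg adjustment over the 13564 genes tested. The standard error of a change was taken from its F statistic. The fit was tested on simulated data with known changes. Same-numbered libraries come from the same horse. Their deviations from the group means correlated at 0.465 to 0.645, while the highest correlation with another horse's library was 0.176 or lower. Since 1 sample per tissue and horse was sequenced, the spread is that between horses. At 17115884 to 19295339 counts per library, values below 1 CPM rest on few counts, which limits their precision.

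Named genes were the members of gene lists, and of the 62 lists 61 had a tested member: 1359 of 1410 listed symbols were in the table and 1145 were tested. The rule for named genes took, among called genes with a mean of at least 5 CPM and 1 direction in all 5 horses, those with the largest changes (15 per direction) and lowest p (10 per direction), every measured fibre-end and neuromuscular marker, up to 4 called members of each other list by size of change and its 2 most abundant, and the 10 most abundant genes in Muscle. The text names a subset, some items are not reported here, and genes outside the rule are marked as chosen after their values were seen. The members and lists were chosen with earlier results of these data known. Alternatives covered 4 other scalings, 2 other filters, DESeq2 1.42.0, limma-voom (limma 3.58.1), no block, all 15 libraries and each horse left out, and 2 further fits were added after seeing the data. No paired set test or enrichment was run, and training was not compared because the labels of horse 14 differ.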

Additional observations from a re-analysis of the deposited data

Results flagged for a closer look

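Among 252 groups of 5 values of the genes named here, 17 held a value far from the other 4. Chance gives about 1 in 20 for normally distributed values. CPM need not be so distributed, and some genes were chosen after their values were seen, so the 17 are a description. Of the 17, 12 were the highest of their group. The MTJ section of horse 17, with the highest tendon ratio, was far above the others for LOX (212 CPM), PRELP (499 CPM), CILP2 (31.9 CPM), IGFBP6 (37.4 CPM) and SOD3 (7.81 CPM). The MTJ section of horse 18 was far above the others for S100B (4.81 CPM), a Schwann cell gene. The MTJ section of horse 16 was far above for MYH3 (134 CPM) and OSTN (62.8 CPM) and far below for THBS1 (43.3 CPM). In Muscle, horse 17 was highest for TNMD (0.526 CPM) and CPT1A (9.12 CPM) and lowest for FBN2 (4.27 CPM). Horse 18 was highest there for NEFM (1.68 CPM) and PRG4 (13.4 CPM), horse 16 lowest for S100A4 (15.2 CPM), and horse 20 lowest for COL24A1 (0.663 CPM) and NES (3.50 CPM). No value of horse 14, and none in the MTJ section of horse 20, stood apart in this way.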

How the results depend on the processing

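Scaling set the balance of directions. With library totals 3539 genes were higher, 190 lower and 11 at least 2-fold lower, and under muscle-gene scaling 6619 were higher, 47 lower, 1325 at least 2-fold higher and 10 at least 2-fold lower. With library totals the mean muscle ratio was 90.7% and the mean tendon ratio 7.90%. Across 5 scalings 1451 genes were higher in each and 47 lower in each. With at least 5 CPM, fewer genes were tested, and 244 were at least 2-fold higher and 5 at least 2-fold lower. The unfiltered fit gave 56 genes at least 2-fold lower, but its prior degrees of freedom came out infinite, so each gene's own spread did not enter and its calls are not gene-level tests. An unfiltered fit with edgeR's bias-adjusted method, added after seeing the data, had prior degrees of freedom of 14.26 and gave 54. The same method on the filtered genes, also added then, gave 1580 higher and 1482 lower. DESeq2 gave 1270 higher and 1317 lower, losing SCN3B and ANKRD1 of the named genes.

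Without the replicate block 492 genes were higher, 38 lower, 375 at least 2-fold higher and 8 at least 2-fold lower, and 50 of 126 named genes lost their call, none changing direction. With all 15 libraries in the fit 938 genes were higher, 77 lower and 9 at least 2-fold lower, and 50 named genes lost their call. The cause was not tested.

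Leaving out each horse in turn gave 1094 to 1293 genes higher, 896 to 1211 lower (896 without horse 17), 525 to 651 at least 2-fold higher and 24 to 39 at least 2-fold lower. The mean muscle ratio was then 75.7% to 80.1% and the mean tendon ratio 13.7% to 16.8%. The number called in each of these 5 fits and the fit on all horses was 906 higher and 667 lower.

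Single values turned direction as follows, and the cause was not tested. With library totals MYH2 stood at 0.029 and RAPSN at 0.065. Under muscle-gene scaling CHRNB1 stood at 0.13, CHRND at 0.087, RAPSN at 0.21, TTN at 0.021, MYH2 at 0.17, PYGM at 0.029, CPT1B at 0.014, RPL3L at 0.050 and FBXO32 at 0.0042.

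List medians turned above 0 with library totals for dystrophin-glycoprotein (0.17), endothelial (0.15), neuromuscular (0.091), glycolysis (0.019), ribosomal (0.14), proteasome (0.10), antioxidant (0.20) and immediate early genes (0.16). Under muscle-gene scaling these stood at 0.31, 0.30, 0.23, 0.16, 0.28, 0.25, 0.34 and 0.30, and fast-fibre at 0.12, Z-disc at 0.088, coupling at 0.091, oxidative phosphorylation at 0.024, TCA cycle at 0.050, fatty acid oxidation at 0.060 and atrophy genes at 0.13. With at least 5 CPM, dystrophin-glycoprotein stood at 0.053, immediate early at 0.20, ERK at -0.027, Hedgehog at -0.073 and limb transcription factors at -0.080. Leaving out each horse in turn, ITGA7 ran from -0.022 to 0.088, and medians ran from -0.080 to 0.0080 for dystrophin-glycoprotein complex, -0.013 to 0.23 for basement membrane, -0.011 to 0.031 for ERK pathway and its feedback genes, -0.29 to 0.38 for Schwann cell and myelin genes, -0.059 to 0.041 for immediate early genes, -0.15 to 0.42 for pericyte and smooth muscle markers and -0.021 to 0.11 for satellite cell markers.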

Other observations

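Transcription factors of tendon and limb were called mostly higher in MTJ sections, with 11 of 29 higher and 2 lower, and a median of 0.16 that was -0.08 with at least 5 CPM. RUNX1, a factor of blood and skeletal cells, was at 0.541, 0.445, 1.11, 0.639 and 0.723 CPM in Muscle and 3.33, 2.76, 4.21, 2.58 and 3.86 CPM in MTJ sections, without overlap, and rose by 2.28 ± 0.25 (SE, adjusted p = 3.28e-05). HOXD10 and HOXD11, which pattern the limb, rose by 2.56 ± 0.48 and 2.35 ± 0.37, at means of 0.336 ± 0.292 and 0.250 ± 0.158 CPM in Muscle (mean ± SD, n = 5). Of the 29, 8 are among the authors' tendon reference genes, which were chosen on these samples. Of 7 large proteoglycan and hyaluronan genes 5 rose and 0 fell, with a median of 1.00. PRG4 (lubricin), which lubricates tendon and joint surfaces, was at 5.47, 4.64, 4.796, 13.4 and 3.80 CPM in Muscle and 31.5, 15.7, 23.97, 26.5 and 19.6 CPM in MTJ sections, a change of 1.95 ± 0.19 (SE, adjusted p = 1.16e-05).

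Of 21 immediate early genes 5 rose (23.8%) and 2 fell (9.52%), against 10.9% and 10.2% of all genes. Their median of -0.06 turned above 0 with library totals (0.16) and under muscle-gene scaling (0.30). JUN fell by 0.47 ± 0.11 (SE, adjusted p = 0.00686) in 5 of 5 horses, with an adjusted p of 0.0824 with library totals and 0.407 under muscle-gene scaling. CCN1, a matricellular protein, rose by 1.58 ± 0.20 (SE, adjusted p = 0.000139), without overlap. Of 13 pericyte and smooth muscle markers 2 rose and 2 fell, 15.4% each against 10.9% and 10.2% of all genes. Their median of 0.19 was -0.15 without horse 18. Their sums were 3504 to 6259 CPM in Muscle and 2796 to 4600 CPM in MTJ sections. Of 15 satellite cell markers 4 rose (26.7%) and 1 fell (6.67%), beside the same 10.9% and 10.2% of all genes. Their median of 0.02 was -0.02 without horse 16 and -0.01 without horse 17.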
